A study of Gallus gallus with 6 samples.

Results

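Chromosome 16 of the chicken carries the major histocompatibility complex (MHC), and the genes described here are its protein-coding genes as listed in the authors' deposited table. The members were all rows placed on chromosome 16 with the biotype protein coding, which gave 94 of 18495 rows and of 13542 protein-coding rows. They were divided by symbol into 12 BF, BLB, TAP and TRIM genes, called the antigen presentation group here, and 82 other genes. A symbol was given for 44 members and an identifier alone for 50, and the members lay between positions 51367 and 2662490 of the build GRCg7b.

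RNA came from ICP1 cells, an immortalized chicken preadipocyte line, so every library derives from the same line. The EV group consisted of 3 wells transfected with the pCMV-myc plasmid, which carries no insert, and the KLF2 group of 3 wells transfected with pCMV-myc-KLF2. Both groups went through the same transfection and were collected 48 h later. The vector is driven by a viral promoter, so KLF2, a Krüppel-like transcription factor with zinc fingers, was to be overexpressed.

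MHC class I molecules sit on nearly all nucleated cells and show peptides from inside the cell to cytotoxic T cells. Peptides are pumped into the endoplasmic reticulum by the TAP1-TAP2 transporter and loaded onto the class I heavy chain with the help of tapasin. Class II molecules are made mainly by professional antigen-presenting cells and receive their peptides in endosomes with the help of DM proteins. In the chicken the BF (class I) and BL (class II) genes form a very compact region on this microchromosome, with the TAP genes lying between the class I genes. A second region, MHC-Y, holds class I-like and lectin-like genes, and the same chromosome carries the repeated ribosomal RNA (rRNA) genes.

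Depth was even, at 13255169 to 14168807 reads per library. KLF2 had 1093, 674.8 and 696.5 normalized counts in EV wells 1 to 3 and 1052, 1618 and 2412 in KLF2 wells 1 to 3, so the library labelled KLF2 1 lay below EV 1. Its log2 fold change was 1.00 (SE 0.31), with an unadjusted p of 0.0126 in the limma test described below. It did not pass after adjustment (adjusted p = 0.962, which was also the lowest value over all tested genes). All 9 preadipocyte and fibroblast markers looked for were present with a mean normalized count of at least 20, led by VIM and COL1A1. Of 12 leukocyte markers, 8 were found and 6 had such a mean, among them SPI1 at 950.2, CD3E at 74.5 and PTPRC at 67.4, whereas ITGB2 (3.34) and LCP1 (1.63) were near 0 and LCP1 had no read in any EV library. The summed leukocyte level was 1001 to 1370 in EV and 1057 to 1375 in KLF2 libraries. Endothelial markers were found for 7 of 7 symbols (summed level 192.1 to 231.2), but only 3 had a mean of at least 20, led by CDH5 at 129.6. Epithelial markers were found for 4 of 6 symbols (summed level 1.02 to 10.2), and 0 had such a mean. Fewer cells of a type and less RNA per cell cannot be told apart in such bulk libraries. The share of reads on rRNA genes was 0.350%, 0.011% and 0.0215% in EV wells 1 to 3 and 0.00162%, 0.00877% and 0.131% in KLF2 wells 1 to 3, so EV 1 and KLF2 3 stood apart from the other libraries.

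All values below are the authors' normalized counts, which are read counts scaled between libraries. The test was limma on log2(normalized count + 1), two-sided, adjusted by the Benjamini-Hochberg method over the 16765 genes whose mean reached 1 in at least one group. Fold changes are log2 values of KLF2 over EV on that scale, which understates the change of low genes, and intervals are at the 95% level. No library preparation step that marks strand is described, so reads from a stretch shared by overlapping genes cannot be told apart, and 30 members overlapped another row. Near-identical copies such as BF1 and BF2, BLB1 and BLB2, or the MHC-Y and B-G genes may exchange reads, and their values are uncertain to that extent.

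Of the 94 members, 85 were tested and 9 were too low. The edge of that filter ran between the lectin-like ENSGALG00010002174, with a higher group mean of 0.976, and TRIM27.2, with 1.02. A mean of at least 20 was reached by 46 members, of at least 100 by 25 and of at least 1000 by 6, while 40 had a mean below 10 and 30 had no read in at least 1 library. The 6 highest genes made up 76.2% of the summed level of the members, and RACK1 alone made up 44.1%.

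Compared per kilobase of gene length, the class I presentation genes of chromosome 16 stood far above its class II genes in these preadipocytes. BF2 and BF1 had mean levels of 482.1 and 350.1 normalized counts per kilobase, the peptide-loading genes TAPBP, TAP2 and TAP1 215.0, 125.6 and 122.9, and the class II chain genes BLB2 and BLB1 16.2 and 3.54. BF2 stood at percentile 85.4 and BLB1 at percentile 22.4 of all protein-coding genes on this scale. The class II loading gene DMA was at 27.7 normalized counts per kilobase and its partner DMB2 at 4.52. The lectin-like genes were low as a family, with no member above 2.60 per kilobase. The plot of levels by family sets these side by side.

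**Figure D1:**
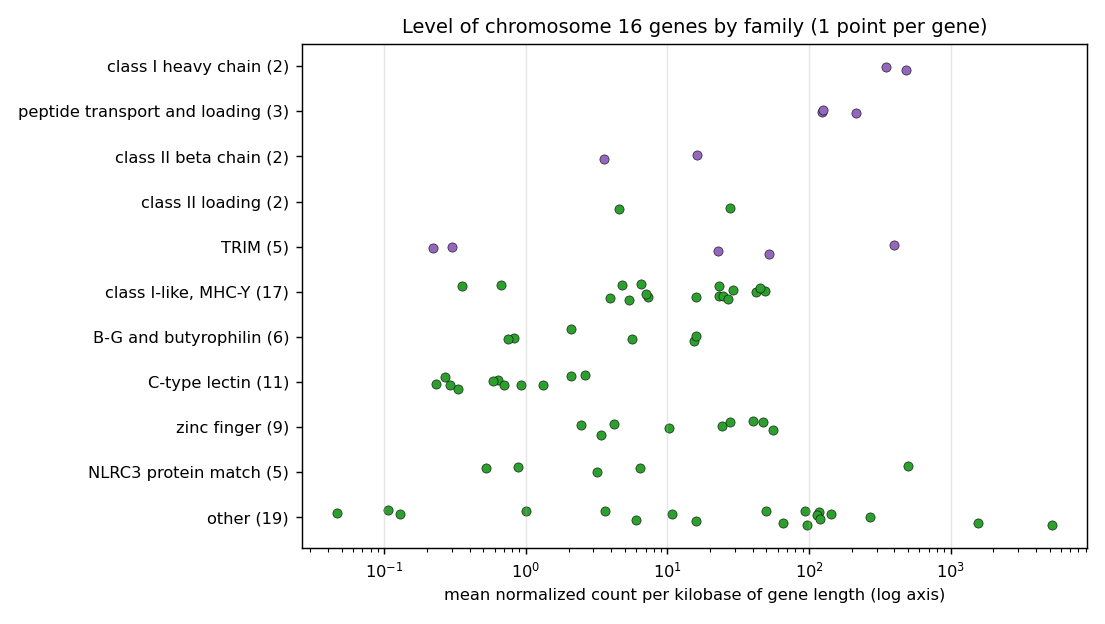
Mean level over the 6 libraries in normalized counts per kilobase of gene length (log axis), 1 point per gene, by family, with the number of genes in brackets; purple points are BF, BLB, TAP and TRIM genes and green points are the other members. The ARHGAP32-like, retroviral, CD1, MHC-Y class II and unannotated genes are not drawn. BF1 and BF2 lie at 350.1 and 482.1 while BLB1 and BLB2 lie at 3.54 and 16.2.

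BF2, the class I heavy chain gene that dominates expression in many chicken haplotypes, lies on the minus strand from 2226706 to 2229505. It had 1522, 690.1 and 773.9 normalized counts in EV wells 1 to 3 and 448.9, 651.4 and 1172 in KLF2 wells 1 to 3. EV 1 was highest and KLF2 3 next, KLF2 1 was lowest, and the groups overlapped. BF2 had a log2 fold change of -0.41 (SE 0.44, interval -1.47 to 0.65), smaller than its standard error and with an interval that included 0. The unadjusted limma p was 0.379 and the adjusted p 0.962. BF1, the other classical heavy chain gene, lies on the plus strand from 2213458 to 2216245. Its normalized counts were 1221, 505.6 and 606.7 in EV wells 1 to 3 and 366.6, 528.2 and 965.0 in KLF2 wells 1 to 3, in the same order of extremes as BF2. BF1 had a log2 fold change of -0.33 (SE 0.46, interval -1.44 to 0.78). Without EV 1 the value was -0.06 for BF2 and 0.05 for BF1, without KLF2 1 it was -0.09 and -0.01, and without KLF2 3 it was -0.79 and -0.71. BF2 exceeded BF1 per kilobase in all 6 libraries, by 1.33 to 1.5 times.

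In the genes of the peptide-loading machinery, too, EV 1 was the highest and KLF2 1 the lowest library. TAP1, a subunit of the peptide transporter that lies from 2216246 to 2221659, had 502.9, 266.0 and 237.9 normalized counts in EV wells 1 to 3 and 174.7, 189.5 and 375.5 in KLF2 wells 1 to 3. EV 1 and KLF2 3 were the high libraries and the groups overlapped, with a log2 fold change of -0.45 (SE 0.36, interval -1.25 to 0.35). TAP2, the other subunit, lies from 2221654 to 2225169 on the opposite strand, head to head with TAP1, and overlaps its start. It had 508.8, 337.4 and 285.7 normalized counts in EV wells 1 to 3 and 219.3, 260.0 and 326.8 in KLF2 wells 1 to 3. Here KLF2 1 and KLF2 2 lay under every EV library, but KLF2 3 lay between EV 3 and EV 2. TAP2 had a log2 fold change of -0.46 (SE 0.24, interval -0.98 to 0.05), with an unadjusted limma p of 0.074. Without EV 1 the value was -0.12 for TAP1 and -0.23 for TAP2, and without KLF2 3 it was -0.80 and -0.61. TAP2 and TAP1 were close in level, with a per-kilobase ratio of 0.80 to 1.26 over the libraries.

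TAPBP encodes tapasin, which bridges the transporter and the class I molecule, and lies from 2188266 to 2193337. Its normalized counts were 831.2, 312.9 and 418.5 in EV wells 1 to 3 and 154.4, 266.2 and 651.6 in KLF2 wells 1 to 3. The highest library, EV 1, was 5.39 times the lowest, KLF2 1, the widest span among the BF and TAP genes. TAPBP had a log2 fold change of -0.67 (SE 0.62, interval -2.22 to 0.88). That value was -1.23 without KLF2 3, -0.27 without EV 1 and -0.20 without KLF2 1, in no case past the threshold.

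The class II beta chain genes were low. BLB2, from 2192779 to 2194325, had 20.7, 9.17 and 3.82 normalized counts in EV wells 1 to 3 and 30.5, 21.7 and 13.4 in KLF2 wells 1 to 3. KLF2 1, the lowest library for the BF and TAP genes, was the highest for BLB2, and EV 1 lay within the KLF2 range. BLB2 had a log2 fold change of 1.09 (SE 0.57, interval -0.15 to 2.33), with an unadjusted limma p of 0.079 and an adjusted p of 0.962. BLB2 overlaps TAPBP on the opposite strand. BLB1, from 2184974 to 2187386, had 9.86, 9.17 and 1.91 normalized counts in EV wells 1 to 3 and 1.02, 5.18 and 11.5 in KLF2 wells 1 to 3, a log2 fold change of -0.35 (SE 0.78). BLB1 had 39 reads in all and BLB2 99, and for both the groups overlapped. The BLB2 group means were 11.2 (SD 8.63) in EV and 21.9 (SD 8.54) in KLF2 libraries. Without EV 1 the value of BLB2 was 1.63 and without EV 3 it was 0.55.

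TRIM genes encode tripartite-motif proteins, many of them ubiquitin ligases, and 5 lie in the region. TRIM7.2 was the most expressed of them at 398.0 normalized counts per kilobase. It had 1548, 950.0 and 884.7 normalized counts in EV wells 1 to 3 and 756.6, 929.0 and 1079 in KLF2 wells 1 to 3. EV 1 alone stood clear of the other libraries. TRIM7.2 had a log2 fold change of -0.26 (SE 0.22, interval -0.73 to 0.21). TRIM41, which overlaps RACK1 on the opposite strand, had 230.7, 134.5 and 169.1 normalized counts in EV wells 1 to 3 and 136.1, 155.4 and 150.0 in KLF2 wells 1 to 3, a log2 fold change of -0.24 (SE 0.24). TRIM7.1 had 102.5, 56.1 and 50.6 in EV wells 1 to 3 and 81.2, 44.5 and 76.4 in KLF2 wells 1 to 3. The TRIM7.1 groups covered each other almost completely, with a log2 fold change of -0.02 (SE 0.35). TRIM27.2 and TRIM39.2 had 6 and 4 reads in all and can be read only as near 0.

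**Figure D2:**
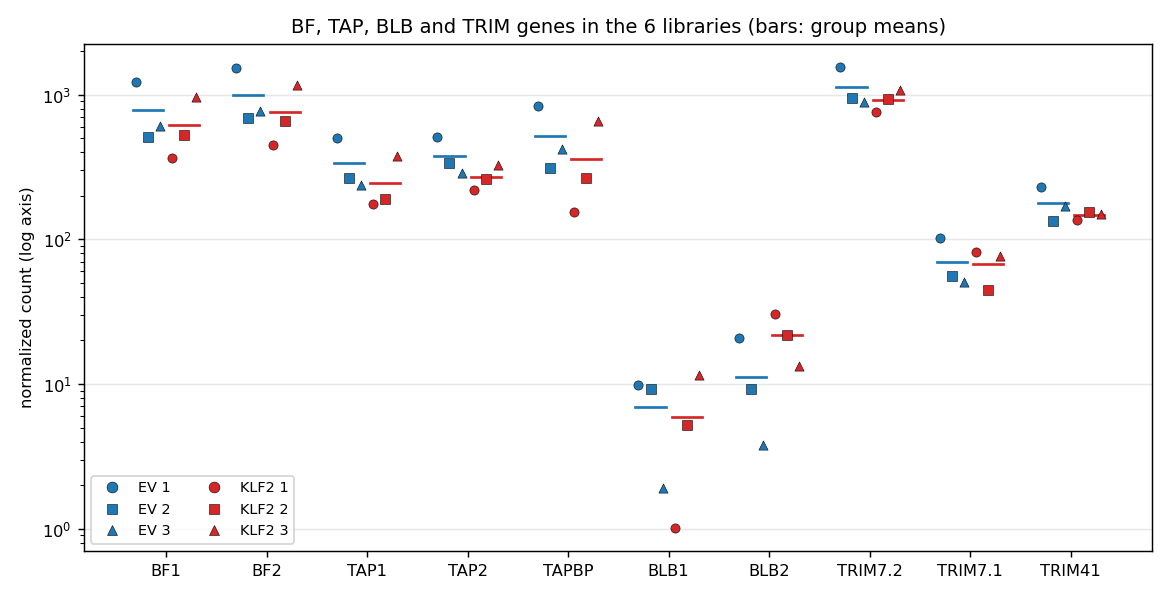
Normalized counts (log axis) of the BF, TAP, BLB and TRIM genes in each library, EV in blue and KLF2 in red, with marker shape for the replicate number and bars for group means; TRIM39.2 and TRIM27.2 are left out as near 0. For BF1, BF2, TAP1, TAP2 and TAPBP the EV 1 point is the highest and the KLF2 1 point the lowest, and KLF2 3 lies above KLF2 1 and KLF2 2.

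No member passed the limma test. Adjusted p was below 0.05 for 0 of the 85 tested members and for 0 of 16765 genes, or 0.0%, and the lowest adjusted p of a member was 0.962. At an unadjusted p under 0.05 there was 1 member of 85, against 354 of all tested genes, or 2.11%. It was lower in KLF2, as were 1.2% of all tested genes at that level of p. edgeR's quasi-likelihood test and DESeq2, run on the recovered reads, also called 0 members. At an unadjusted p under 0.05 edgeR had 1 of 54 members against 1.3% of all genes, and DESeq2 1 of 94 members against 0.936%. Leaving out KLF2 3 raised the count at that level for members and for all genes alike, to 22 of 86 members (25.6%) against 12.2% of all genes, with 0 passing adjustment. Without EV 1 and KLF2 3 together it was 14 of 83 members (16.9%) against 10.0% of all genes, again with 0 members passing adjustment. With another single library left out it was 1 of 81 members without EV 1 (1.51% of all genes), 2 of 87 without EV 2 (2.08%) and 4 of 83 without EV 3 (1.84%). It was 0 of 85 without KLF2 1 (1.41%) and 1 of 83 without KLF2 2 (1.65%).

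That member was DAXX, which encodes a histone chaperone and transcriptional corepressor and lies from 1987154 to 1993159. DAXX had 312.6, 184.5 and 189.2 normalized counts in EV wells 1 to 3 and 103.6, 132.6 and 169.1 in KLF2 wells 1 to 3. All 3 KLF2 libraries were below all 3 EV libraries, although KLF2 3 and EV 2 were close. DAXX had a log2 fold change of -0.74 (SE 0.27, interval -1.32 to -0.16), with an unadjusted limma p of 0.017 and an adjusted p of 0.962. In the authors' deposited table, made from the same libraries, DAXX has a log2 fold change of -0.76, a p-value of 0.0106 and an adjusted p of 0.99995. The lowest adjusted p of any gene in that table is 0.661. DAXX was the only one of the 46 members with a mean of at least 20 whose groups did not overlap, against 5.62% of the 10893 genes at that level in either direction and 2.74% in the lower direction. The members' share of 2.17% rests on 1 gene of 46 and cannot be set apart from those shares.

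Negative fold changes were frequent among the members, although none was past the threshold. The log2 fold change was below 0 for 61 of 85 tested members, or 71.8%, against 50.9% of all tested genes. With a mean of at least 20 it was below 0 for 38 of 46 members against 51.3% of all genes at that level. In the antigen presentation group 8 of 8 such genes were below 0, and among the other members 30 of 38. Over all tested genes of each group it was 9 of 11, with BLB2 and TRIM27.2 above 0, and 52 of 74. The median log2 fold change was -0.33 in the antigen presentation group, -0.25 in the other members and -0.01 over all tested genes. Over all tested members it was -0.26, and it became -0.04 without EV 1, -0.09 without KLF2 1 and -0.49 without KLF2 3. The plot of fold change against level places the members within the cloud of all genes, mostly under the zero line.

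**Figure D3:**
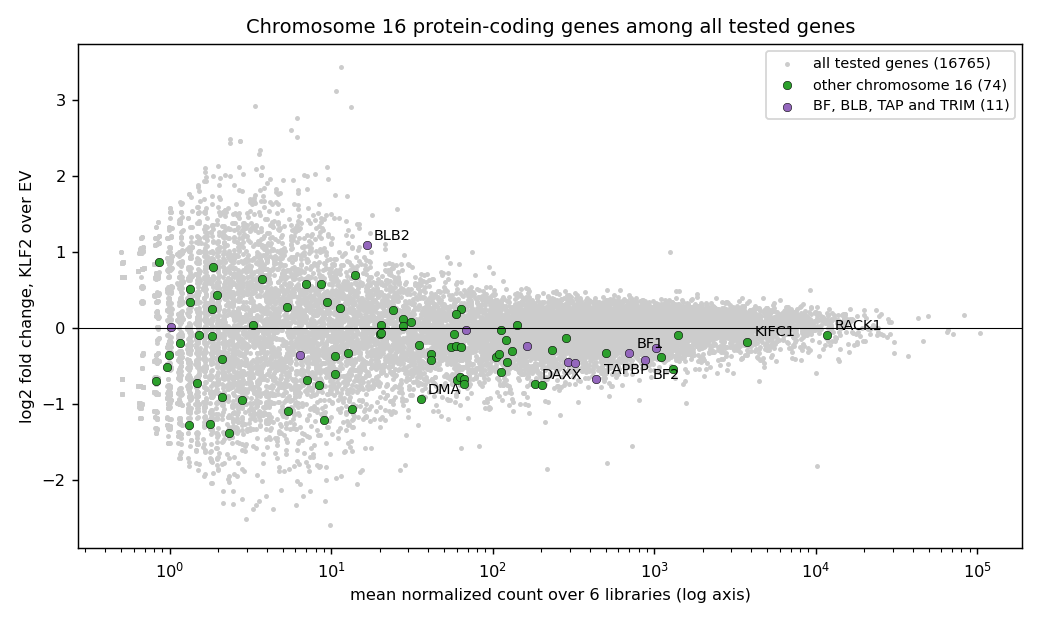
Log2 fold change of KLF2 over EV against the mean normalized count over the 6 libraries (log axis) for the 16765 tested genes in grey, with 11 BF, BLB, TAP and TRIM genes in purple and 74 other members in green. BLB2 is at 1.09, DMA at -0.94, DAXX at -0.74 and RACK1 at -0.09, and no gene passed the adjusted threshold.

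Wells of the same group differed widely. Among members with a mean of at least 20, EV 1 was the highest library for 27 of 46, against 28.2% of all genes at that level, and EV 1 or KLF2 3 for 38 of 46, against 42.1%. KLF2 1 was the lowest library for 25 of 46, against 29.9%. The median deviation of the tested members from their own mean was 0.63, -0.07 and -0.04 (log2) in EV wells 1 to 3 and -0.44, -0.22 and 0.30 in KLF2 wells 1 to 3. For the 5 BF and TAP genes these medians were 0.91, -0.23 and -0.08 in EV wells 1 to 3 and -0.81, -0.31 and 0.54 in KLF2 wells 1 to 3, and EV 1 was highest and KLF2 1 lowest for 5 of 5. All 17 MHC-Y class I-like genes had medians of 0.30, 0.01 and 0.19 in EV wells 1 to 3 and -0.11, -0.24 and -0.06 in KLF2 wells 1 to 3. Their EV 1 and KLF2 1 medians lay nearer to 0 than those of the BF and TAP genes, but their EV 3 median did not. For the 10 of them with a mean of at least 20, the medians in EV wells 1 to 3 were 0.21, 0.10 and 0.15. In KLF2 wells 1 to 3 they were -0.10, -0.29 and 0.16, so KLF2 3 was above 0 there too. Of the 10 MHC-Y class I-like genes with a mean of at least 20, none had both EV 1 highest and KLF2 1 lowest. The share of all genes at that level was 16.1%, from which so few genes cannot be set apart. EV 1 was highest for 3 of these 10, against 28.2% of all genes, and KLF2 1 lowest for 3, against 29.9%. The heatmap of members shows these patterns along the chromosome.

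**Figure D4:**
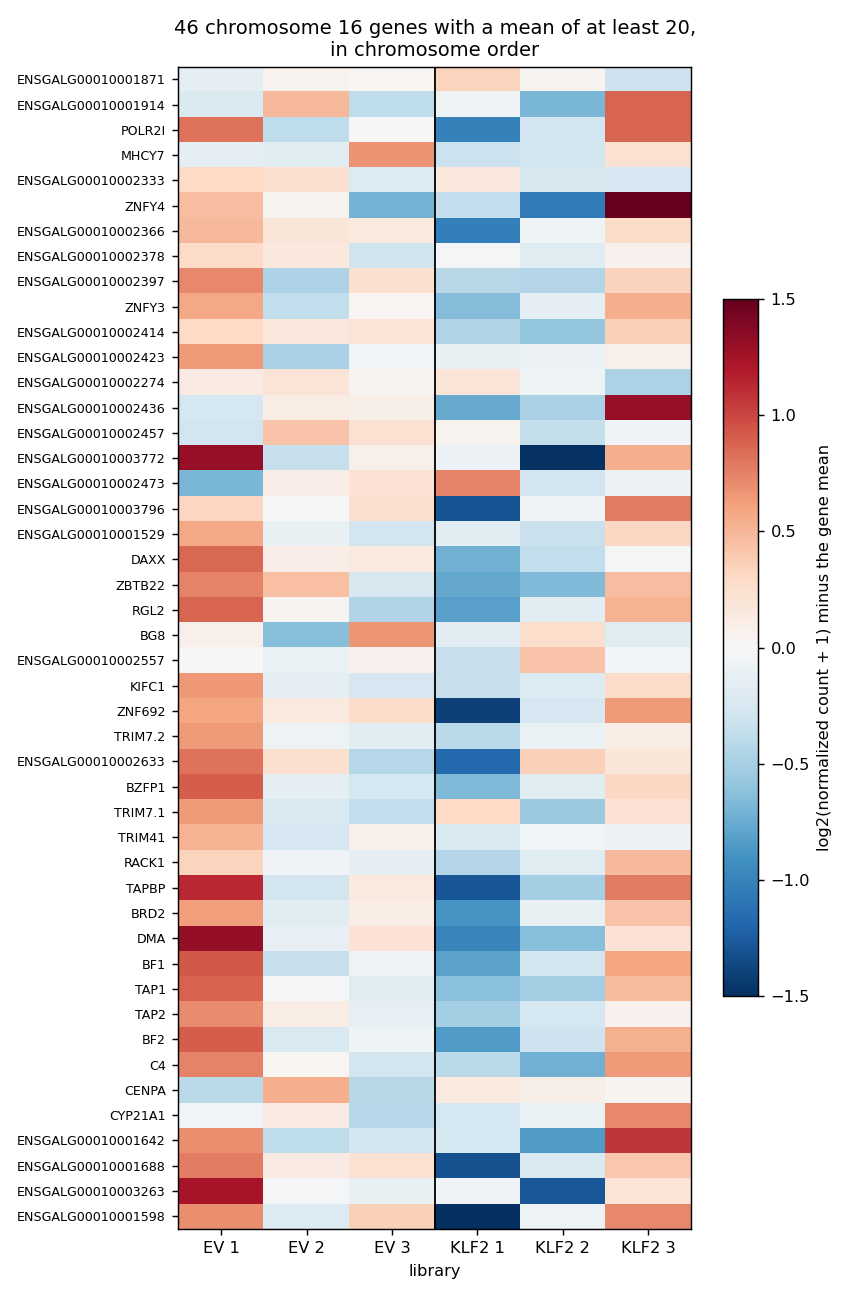
Log2(normalized count + 1) minus the gene's own mean in each of the 6 libraries for the 46 members with a mean of at least 20, in chromosome order from top to bottom; red is above and blue below the mean, and colours saturate at the ends of the scale. The EV 1 and KLF2 3 columns are mostly red and the KLF2 1 column mostly blue.

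The same order of libraries appeared on other small chromosomes. Among 33 chromosomes with enough protein-coding genes, chromosome 16 ranked 3 from the lowest by median log2 fold change, -0.27, after chromosomes 38 (-0.30) and 30 (-0.29) and before 34 (-0.26) and 25 (-0.26). All 5 had EV 1 highest, KLF2 3 next and KLF2 1 lowest by median deviation. A score of the libraries, the median deviation of microchromosome genes other than those on chromosome 16 minus that of large-chromosome genes, was 0.27, -0.04 and -0.05 in EV wells 1 to 3 and -0.18, -0.12 and 0.14 in KLF2 wells 1 to 3. The score and the rRNA share were both highest in EV 1, next in KLF2 3 and lowest in KLF2 1. With that score as a covariate in limma the median of the tested members was -0.04, that of the antigen presentation group -0.04 and that of the other members -0.02. Under it BF1 and BF2 turned to 0.11 and 0.01, while TAP1, TAP2 and TAPBP stayed below 0, as did DMA and DAXX. The score was built from these same libraries, so it also takes up any group difference that microchromosome genes share. The fit with the score therefore cannot tell such a difference from one between wells. The part of the rRNA share in the members' values was not tested.

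**Figure D5:**
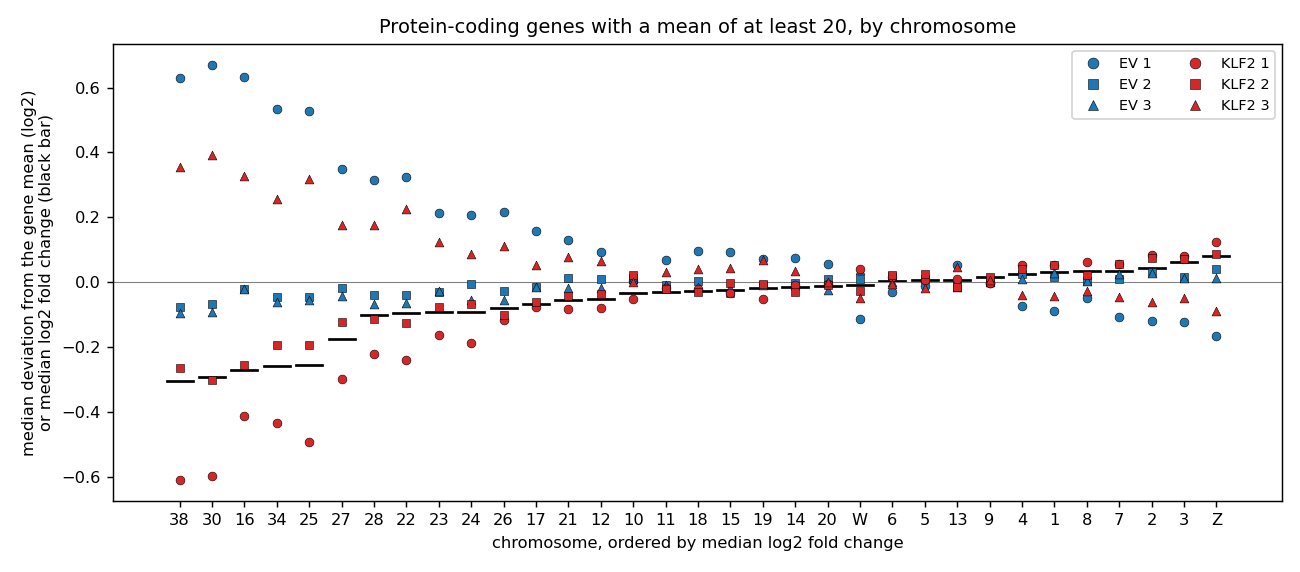
Median deviation from the gene mean (log2) of protein-coding genes (mean of at least 20) in each library, by chromosome, EV in blue and KLF2 in red, with a black bar for the median log2 fold change; chromosomes are ordered by that median. Chromosome 16, near the left end, has EV 1 at 0.63, KLF2 3 at 0.33 and KLF2 1 at -0.41, beside chromosomes 38, 30, 34 and 25 with the same order.

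Of the class II loading genes, DMA, one chain of the DM peptide editor, had 78.9, 28.5 and 36.3 normalized counts in EV wells 1 to 3 and 15.2, 19.7 and 36.3 in KLF2 wells 1 to 3. EV 1 was far above the other libraries and KLF2 3 equalled EV 3 to the digits given. DMA had a log2 fold change of -0.94 (SE 0.45, interval -1.91 to 0.04), the lowest among members with a mean of at least 20, with an unadjusted limma p of 0.058. Without EV 1 it was -0.52 and without KLF2 3 it was -1.28. DMA overlaps BRD2 on the opposite strand. DMB2, the other DM chain, had 6.90, 5.10 and 8.60 normalized counts in EV wells 1 to 3 and 0, 5.18 and 6.69 in KLF2 wells 1 to 3, too few reads to separate the groups.

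The MHC-Y class I-like genes numbered 17, of which 10 had a mean of at least 20, and 12 had a negative and 5 a positive fold change. Their levels ran from 0.355 to 48.8 normalized counts per kilobase, all under the BF genes. ENSGALG00010002414, the highest of them per kilobase, had 146.9, 134.5 and 138.5 normalized counts in EV wells 1 to 3 and 87.3, 79.7 and 152.9 in KLF2 wells 1 to 3. KLF2 3 was above all EV libraries and the other KLF2 libraries were below them. Its log2 fold change was -0.45 (SE 0.28). MHCY7 had 48.3, 47.9 and 86.0 in EV wells 1 to 3 and 42.7, 43.5 and 63.1 in KLF2 wells 1 to 3, with EV 3 the highest library. MHCY15 was even across libraries at 15.3 to 23.8, and MHCY11 ran from 5.73 to 24.9. MHCY2B2, a class II beta gene of the same region, had no read in EV 2 and KLF2 2 and 13.4 normalized counts in KLF2 3.

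The B-G and butyrophilin-like genes, which encode immunoglobulin-like surface proteins, numbered 6, with 5 fold changes above 0 and none past the threshold. Only 2 had a mean of at least 20, 1 above and 1 below 0, and the other 4 had 11 to 52 reads in all. BG8 had 20.7, 12.2 and 31.5 normalized counts in EV wells 1 to 3 and 17.3, 23.8 and 17.2 in KLF2 wells 1 to 3, with the KLF2 values inside the EV range. ENSGALG00010002557 had 27.6, 25.5 and 28.7 in EV wells 1 to 3 and 21.3, 37.3 and 26.8 in KLF2 wells 1 to 3. CD1C, of the CD1 family that presents lipids, had 16.8, 8.15 and 5.73 in EV wells 1 to 3 and 6.09, 17.6 and 13.4 in KLF2 wells 1 to 3. Of the 11 C-type lectin genes, YLEC and BLEC genes among them, none had a mean above 3.28 and only 6 were tested, so their direction cannot be read. BLEC3, which overlaps KIFC1, had 11 reads in all.

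RACK1 and KIFC1, which have no part in antigen presentation, led the members in level per kilobase. RACK1, a scaffold protein of the small ribosomal subunit, had 14488, 11140.0 and 10460.0 normalized counts in EV wells 1 to 3 and 8501, 10190.0 and 16099.9 in KLF2 wells 1 to 3, at percentile 99.4 of protein-coding genes per kilobase. KLF2 3 was the highest and KLF2 1 the lowest library, both of the same group, and the log2 fold change was -0.09 (SE 0.23). KIFC1, a minus-end-directed kinesin of the mitotic spindle, had 5719, 3327 and 3064 in EV wells 1 to 3 and 2877, 3152 and 4446 in KLF2 wells 1 to 3, a log2 fold change of -0.18 (SE 0.25). BRD2, a bromodomain reader of acetylated histones, had 1614, 926.5 and 1123 in EV wells 1 to 3 and 563.6, 967.3 and 1407 in KLF2 wells 1 to 3. Its log2 fold change was -0.38 (SE 0.35). C4, a complement component encoded next to BF2, had 787.8, 481.1 and 388.9 in EV wells 1 to 3 and 354.4, 284.8 and 733.8 in KLF2 wells 1 to 3. In all 4 genes the groups overlapped.

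Of the 6 members with the highest level per kilobase, RACK1, KIFC1, ENSGALG00010002378, BF2, ENSGALG00010002366 and TRIM7.2, the pair without symbols lay over rRNA loci. ENSGALG00010002366, from 1622270 to 1634221, has no protein match in the table and encloses RefSeq rRNA loci of 4444, 153 and 1823 bases. Its normalized counts were 1755, 1419 and 1382 in EV wells 1 to 3 and 614.4, 1200 and 1516 in KLF2 wells 1 to 3, a log2 fold change of -0.54 (SE 0.31). The rRNA row inside it, ENSGALG00010003633, had 41517, 1109 and 2101 in EV wells 1 to 3 and 174.7, 842.0 and 14992 in KLF2 wells 1 to 3, a far wider spread with the same highest and lowest library. ENSGALG00010002378, from 1631899 to 1635728, has a protein match to NLRC3 and encloses the same 1823-base locus. It had 1697, 1549 and 1125 in EV wells 1 to 3 and 1362, 1225 and 1448 in KLF2 wells 1 to 3, with a highest library 1.51 times the lowest. All 5 members with an NLRC3 match enclose an rRNA locus of 1823 bases. ENSGALG00010003346, another of them, had 33.5, 6.12 and 2.87 in EV wells 1 to 3 and 3.05, 3.11 and 27.7 in KLF2 wells 1 to 3, high in the libraries with the most rRNA reads. No source used here says how reads over both kinds of row were assigned, so for these 6 members reads of rRNA and of other transcripts cannot be told apart. Enclosure was judged on the span from start to end. The gene length of ENSGALG00010002366 is only 3300 bases, so its 4444-base locus cannot lie wholly within that length. ENSGALG00010002378 has a gene length of 2790 bases in a span of 3830, while in the other NLRC3 matches length and span are equal.

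The genes of antigen presentation outside chromosome 16 were examined as a list of 63 symbols, of which 56 were found and tested. None passed the limma test or an unadjusted limma p under 0.05, a level reached by 2.11% of all tested genes. From that share so few genes cannot be set apart. Fold changes were below 0 for 26 and above 0 for 30, with a median of 0.03, and 50.9% of all tested genes were below 0. In the class I list 6 of 17 were below 0, in the class II list 6 of 13, among MHC regulators 6 of 11 and in interferon signalling 8 of 15. The highest of the class I list per kilobase were PDIA3, CALR and B2M, which serve folding and assembly of class I molecules. B2M, the class I light chain, had 6212, 4474 and 4977 normalized counts in EV wells 1 to 3 and 2972, 4116 and 6846 in KLF2 wells 1 to 3. CALR, a chaperone, had 7358, 3978 and 4091 in EV wells 1 to 3 and 2144, 3394 and 6858 in KLF2 wells 1 to 3. KLF2 1 was the lowest library for both genes, while KLF2 3 was highest for B2M and EV 1 for CALR, with log2 fold changes of -0.24 (SE 0.28) and -0.42 (SE 0.48). PDIA3, an oxidoreductase, was even, at 6591 to 8664 normalized counts.

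The highest genes of the other lists per kilobase had small fold changes, none past the threshold. The endosomal genes LGMN, RAB7A and LAMP1 had log2 fold changes of 0.10, 0.10 and -0.09, the promoter-binding factors NFYC and NFYA -0.16 and 0.25 with the acetyltransferase KAT2B at -0.06, and the interferon pathway genes JAK1, IFNGR1 and IFNGR2 0.04, 0.20 and 0.02. Of the 54 outside genes with a mean of at least 20, PSME3, MARCH8, NFYB and RAB7A had every KLF2 library above every EV library. Their log2 fold changes were 0.16, 0.18, 0.23 and 0.10. Of all genes with a mean of at least 20, 2.87% were so. No listed gene at that level had every KLF2 library below every EV library, against 2.74% of all genes. Whether these counts differ from the shares of all genes was not tested. A further 3 genes were picked after their values were seen. All 3 had fold changes below 0, whereas 30 of the 56 outside genes were above 0. NLRC5, known in mammals as the class I transactivator, had 634.0, 544.3 and 605.7 normalized counts in EV wells 1 to 3 and 458.0, 489.9 and 576.2 in KLF2 wells 1 to 3, a log2 fold change of -0.23 (SE 0.16). RFX5, of the complex that binds MHC promoters, had 264.3, 172.3 and 175.8 in EV wells 1 to 3 and 97.5, 154.3 and 236.0 in KLF2 wells 1 to 3, with EV 1 highest and KLF2 1 lowest as in the BF and TAP genes. CD74, the class II invariant chain, had 72.0, 66.3 and 74.5 in EV wells 1 to 3 and 38.6, 35.2 and 72.6 in KLF2 wells 1 to 3, with KLF2 3 inside the EV range and a log2 fold change of -0.60 (SE 0.33).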

How the data were processed

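Per the labels' protocols, poly(A)-selected RNA was sequenced from 6 wells that count as biological replicates, so the tests see the spread between cultures of one line. The submitters' processing notes name HISAT2 2.0.5, StringTie 1.3.3b, featureCounts 1.5.0-p3, fastp and the build GRCg7b, without the normalizing program. The deposited signal is the authors' normalized count. Dividing by the smallest nonzero value of a library gave whole reads for 100% of values (tolerance 1e-06). Per the file headers, the authors' own log2 fold change and p-value stand beside each gene.

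Robust limma-trend (limma 3.58.1, R 4.3.3) on log2(value + 1) was the main test, with a mean of 1 in either group required and a threshold of 0.05 after Benjamini-Hochberg adjustment. Alternatives were edgeR 4.0.16 and DESeq2 1.42.0 on recovered reads, other normalizations, filters and pseudocounts, a replicate block, left-out libraries and a microchromosome score as covariate. The method was also run on simulated counts in which each gene was drawn independently. Differences between wells that many genes share, such as those of EV 1 and KLF2 3, were not simulated. Families came from symbols and deposited protein matches, and rRNA loci from RefSeq (GRCg7b), which held 36 of the members' 39 NCBI gene identifiers. Members and lists were chosen with earlier results of these data known. The rule named every BF, BLB, TAP and TRIM gene, the 6 highest members per kilobase, members with a mean of at least 20 and no overlap, families related to antigen presentation, and the 3 highest per kilobase of each outside list. BRD2, C4 and the examples from the MHC-Y, B-G and rRNA-spanning genes were picked after their values were seen. A planned promoter motif search was not run, since no promoter sequence was used here.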

Additional observations from a re-analysis of the deposited data

How the results depend on the processing

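Across 17 alternatives, 0 members and 0 of the outside antigen presentation genes passed the adjusted threshold; the lowest adjusted p of a member was 0.136, for TAPBP without EV 1 and KLF2 3 together. Over all tested genes the count was 0 except for 4 without EV 1 and KLF2 3 together and 2 with the microchromosome score. Of 306 recomputed fold changes for 18 named members, 289 kept their sign. The other filters and the replicate block leave a gene's fold change as it is, so their values could not turn. With the microchromosome score the signs turned for BF1 (0.11), BF2 (0.0095), TRIM7.1 (0.19), RACK1 (0.14), KIFC1 (0.094), C4 (0.049) and ENSGALG00010002378 (0.0015). TRIM7.1 also turned under quantile normalization (0.080) and without EV 1 and KLF2 3 together (0.17). With 1 library left out at a time the log2 fold change ran from -0.71 to 0.046 for BF1, -0.22 to 0.29 for TRIM7.1, -0.36 to 0.11 for RACK1, -0.36 to 0.10 for KIFC1, -0.27 to 0.024 for ENSGALG00010002378 and -0.43 to 0.024 for MHCY7. The other 12 named members kept their sign. For DAXX that was fixed in advance, since every KLF2 library lay below every EV library. The ranges were -0.79 to -0.062 for BF2, -0.80 to -0.12 for TAP1, -0.64 to -0.23 for TAP2 and -1.23 to -0.20 for TAPBP. They were -0.41 to -0.0078 for TRIM7.2, -0.42 to -0.038 for TRIM41, 0.55 to 1.63 for BLB2 and -1.28 to -0.52 for DMA. For DAXX the range was -0.91 to -0.49, for BRD2 -0.69 to -0.027, for C4 -0.73 to -0.042 and for ENSGALG00010002366 -0.81 to -0.16. Beyond the score's own construction, the cause was not tested.

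Median log2 fold changes kept their sign under all 17 alternatives, although the replicate block leaves every fold change as it is and could not turn them. Leaving out 1 library gave -0.49 to -0.038 for all members, -0.61 to -0.018 for the antigen presentation group and -0.47 to -0.049 for the others; the other alternatives gave -0.30 to -0.036, -0.34 to -0.036 and -0.29 to -0.020. Residuals of same-numbered wells correlated at -0.60, 0.14 and -0.51, and those of EV 1 and KLF2 3 at 0.72. The residuals were centred within each group of 3 wells, which ties these values to each other. They therefore cannot show whether the wells were handled in pairs. With a replicate block 0 members passed, 1 had an unadjusted p under 0.05, and over all genes 228 had one against 354 without the block. A total of 40 members had a mean below 10, where depth limits any reading of direction.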

Other observations

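Members outside antigen presentation included 9 zinc-finger genes, 4 genes with retroviral annotation and 5 genes with a protein match to ARHGAP32. Of the zinc-finger genes 7 had a mean of at least 20 normalized counts, 7 of 9 fold changes were below 0 and none passed the limma test. ZNFY3 was among the more abundant, with 172.6, 88.7 and 117.5 in EV wells 1 to 3 and 73.1, 104.6 and 169.1 in KLF2 wells 1 to 3, so the groups covered nearly the same range. ZNFY2 had 11.8, 12.2 and 8.60 in EV wells 1 to 3 and 6.09, 6.21 and 5.73 in KLF2 wells 1 to 3, with every KLF2 value below every EV value at a low level (log2 fold change -0.75, SE 0.49). The share of all genes without overlap was counted only at a mean of at least 20. ZNFY2, with a mean of 8.45, lies under that level, so no such share stands beside it.

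Of the retroviral genes, 2 were expressed above a mean of 20. ENSGALG00010001598, with a match to a retroviral polymerase, had 162.7, 86.6 and 128.0 in EV wells 1 to 3 and 34.5, 94.2 and 165.3 in KLF2 wells 1 to 3. ENSGALG00010003263 had 140.0, 58.1 and 54.5 in EV wells 1 to 3 and 56.9, 23.8 and 67.8 in KLF2 wells 1 to 3. CENPA, the centromeric histone encoded beside C4, had EV 2 as its highest library, with 43.4, 84.6 and 43.0 in EV wells 1 to 3 and 64.0, 61.1 and 59.2 in KLF2 wells 1 to 3. ZNFY2, ZNFY3, CENPA and these retroviral genes were picked after their values were seen.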
